A study of Mus musculus with 12 samples.

Results

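Islet peptide hormones are the secreted messages of the endocrine pancreas, and their levels were compared here between pancreas carrying a HuR transgene and control pancreas. Of the 9 hormone genes listed, which were Ins1, Ins2, Gcg, Sst, Ppy, Pyy, Iapp, Ghrl and Ucn3, 8 had a row on the arrays with their own symbol, among 30142 genes in all. Each of the 8 had 1 row, and Ins1 is unnamed here. RNA of mouse pancreas at 6 months of age was hybridised to 12 Affymetrix expression arrays, 1 per sample. Controls were 6 samples titled normal pancreas, of the genotype Pdx1/Cre. The 6 HuR samples, titled experimental pancreas, carried Traffic-HuR in addition to Pdx1/Cre. All 12 samples therefore carried Cre driven by the Pdx1 promoter, so the comparison is of the HuR transgene on a Cre background and holds no sample without Cre. Pdx1 is active in the early pancreas and later mainly in insulin cells, and HuR, the product of Elavl1, is a protein that binds AU-rich elements of messages. The labels do not say that each array held a separate mouse, so the p-values measure the spread between these samples.

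Islets are small clusters of endocrine cells scattered through the acinar tissue, which makes digestive enzymes and fills most of the pancreas. Beta cells release insulin, which lowers blood glucose, together with amylin from Iapp and urocortin 3 from Ucn3. Alpha cells release glucagon, which raises blood glucose, and delta cells release somatostatin, which restrains both. Urocortin 3 acts on delta cells and promotes somatostatin release. The PP cells release pancreatic polypeptide from Ppy, a related peptide YY comes from Pyy in islets and gut, and ghrelin from Ghrl marks the rare epsilon cells.

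Expression is given as deposited log2 values, on which 1 unit is a factor of 2, and a difference is the HuR mean less the control mean, with its standard error (SE). The level of a row depends on its probes, so levels are compared between arrays and not between genes. Arrays correlated at 0.971 to 0.996 over genes, and array medians were 4.42 to 4.60. For the labelled tissue, the acinar markers Cpa1, Cela1, Cel and Gp2 stood at the end of the scale on all 12 arrays. Elavl1 was 5.99 ± 0.12 (SD, n = 6) in controls and 6.23 ± 0.14 (SD, n = 6) in HuR, a difference of 0.24 (SE 0.075), for which the exact permutation p, two-sided like all others here, was 0.0108 and the limma adjusted p was 0.878. 5 of 6 HuR arrays lay above all controls for Elavl1. Control replicate 2 and HuR replicate 2 stood apart, with the highest adipocyte, macrophage and B cell marker means of their groups. The hormone differences are therefore also given without this pair of arrays. A number of genes repeat 1 value on several arrays. The same value on 3 or more of 12 arrays is called a plateau here. A plateau was present in 936 genes (3.11%), among them 3 hormones, Ins2, Gcg and Iapp.

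Across the 8 measured hormones, 7 had a lower mean in HuR and 1 a higher mean, beside 51.6% of all genes with a lower mean and 47.8% with a higher one. One of the 7 is Ins2, whose repeated value gives no estimate. The median difference of the 8 was -0.29, while that of all genes was -0.003. Without control replicate 2, 5 of 8 were lower and the median was -0.08, and without replicate 2 of both groups 7 were lower and it was -0.22. The lower means were those of Iapp, Sst, Ucn3, Ppy, Pyy, Gcg and Ins2, and Ghrl was higher by 0.02. None of the 8 passed the limma test at an adjusted p under 0.05, and the share of all genes that passed was 0.00%. None of the 8 had an unadjusted limma p under 0.05, against 2.63% of all genes lower and 2.87% higher at that level. Control and HuR values overlapped in each of the 8, whereas 0.299% of all genes had groups that did not overlap. The adipocyte markers were higher in HuR in 8 of 8 measured genes, with list means of 6.24 to 8.91 in controls and 7.04 to 10.3 in HuR. The macrophage markers were also higher in 8 of 8, with list means of 7.26 to 9.05 in controls and 8.00 to 10.6 in HuR. In a fit with the adipocyte mean as a term the median hormone difference was -0.95, and none had a limma adjusted p under 0.05. The adipocyte mean itself differed between groups, so its part and that of the group cannot be cleanly told apart. With the B cell mean as the term the median was -0.37, again with none under that level. The part of the macrophage markers in the hormone differences was not tested. In bulk tissue, fewer cells of a type and less RNA per cell cannot be told apart.

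**Figure D1:**
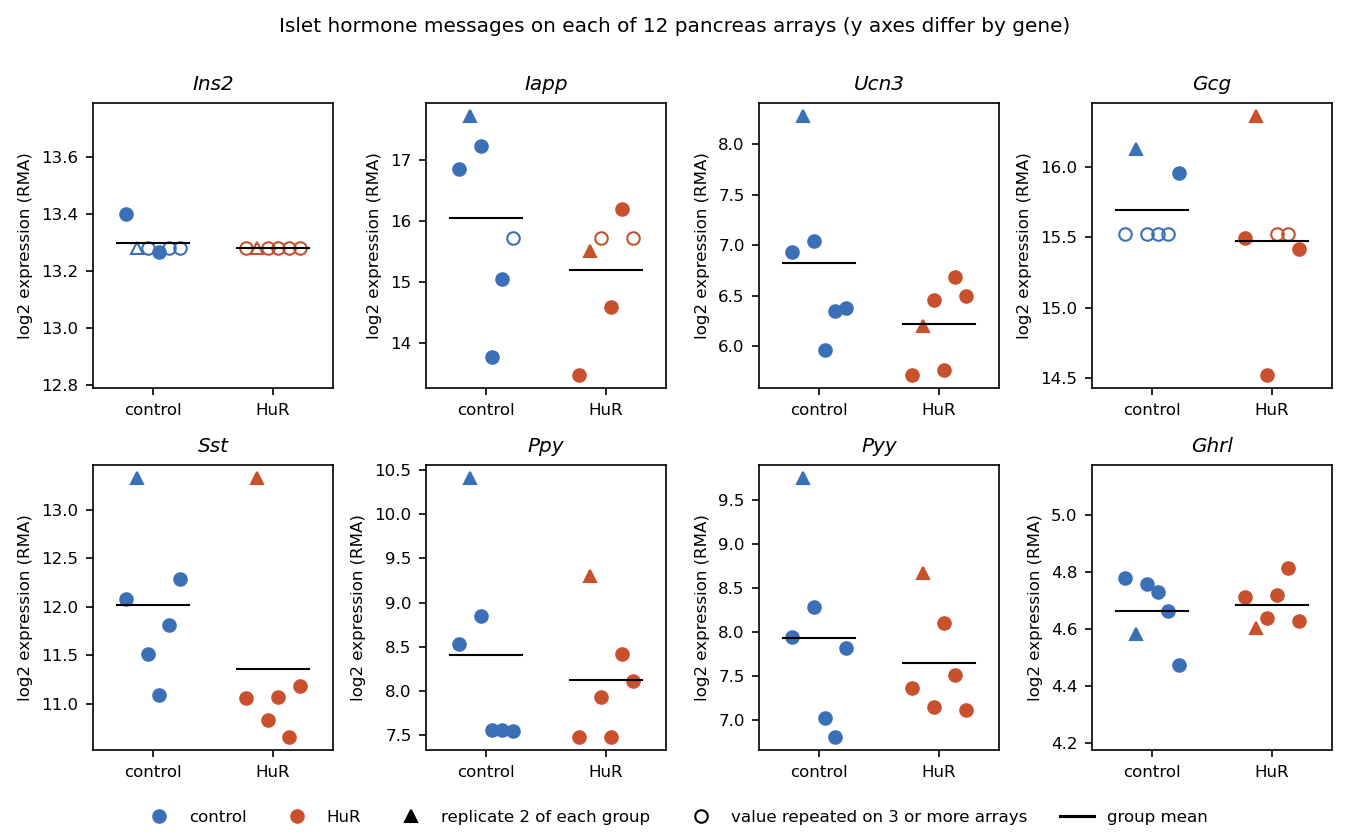
Deposited log2 expression (y axis, a different range for each gene) of the 8 measured hormones on the 6 control and 6 HuR arrays (x axis). Each point is 1 array, triangles are replicate 2 of each group, open symbols are values repeated on 3 or more arrays and lines are group means. The HuR and control points overlap in every panel, and 10 of 12 points of Ins2 stand on 1 value. The triangles are the highest points of their group for Gcg, Sst, Ppy and Pyy.

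The beta cell hormones were measured by Ins2, Iapp and Ucn3. Ins2, which encodes insulin, could not be followed between arrays. Its row held 13.28 on 10 arrays, including all 6 HuR arrays, and the only other values were 13.40 in control replicate 1 and 13.27 in control replicate 4. Its difference of -0.02 (SE 0.033, limma adjusted p = 0.978) describes this plateau and gives no estimate of insulin message. Ins1 and Ins2 are also near-identical in their coding sequence, so probes for one may take up message of the other.

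Iapp encodes amylin, which is packed and released with insulin. Its lowest, median and highest log2 levels were 13.76, 16.29 and 17.73 in controls and 13.46, 15.61 and 16.20 in HuR. Controls 1, 2 and 3 were above every HuR array, control 4 was near the bottom of all 12, and 6 of 6 HuR arrays lay below the control median. The means were 16.05 ± 1.50 (SD, n = 6) and 15.20 ± 1.0 (SD, n = 6), which is 1.81-fold lower in HuR. The difference of -0.86 (SE 0.679) had a limma adjusted p of 0.930 and an exact permutation p of 0.271, and its 95% interval ran from 5.06-fold lower to 1.54-fold higher. It was within the spread between arrays, which spanned 4.27 log2 units for this gene. Control replicate 6 and HuR replicates 3 and 6 shared the plateau value of 15.71. With those 3 values taken as missing the difference was -1.18 (SE 0.844). Single arrays moved it as well, to -0.52 without control replicate 2, to -0.51 without HuR replicate 1 and to -1.32 without control replicate 4. Without replicate 2 of each group it was -0.58 (SE 0.726).

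Ucn3 encodes urocortin 3, a message that rises as beta cells mature. It was 5.96, 6.66 and 8.28 in controls at the lowest, median and highest array, and 5.71, 6.33 and 6.68 in HuR. Controls 1, 2 and 3 again lay above every HuR array, 2 HuR arrays lay below every control, and 5 of 6 were below the control median. Means of 6.82 ± 0.82 (SD, n = 6) and 6.22 ± 0.40 (SD, n = 6) gave a difference of -0.60 (SE 0.344), or 1.52-fold lower, with an interval from 2.56-fold lower to 1.11-fold higher. Among the 8 hormones this was the smallest exact permutation p, 0.121, and the limma adjusted p was 0.911. Control replicate 2 alone had a level above 8, and without it the difference was -0.31. It was also -0.31 (SE 0.259) without replicate 2 of both groups.

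Glucagon, the alpha cell hormone encoded by Gcg, lay at 15.53, 15.53 and 16.13 in controls and 14.52, 15.51 and 16.37 in HuR. A plateau of 15.53 held 4 control and 2 HuR arrays. HuR replicate 2 was the highest of all 12 arrays, and 3 HuR arrays were below all controls, of which replicate 3 was the lowest. The difference was -0.22 (SE 0.244), 1.17-fold lower, with a limma adjusted p of 0.958 and an exact permutation p of 0.457. It was -0.03 without HuR replicate 3, -0.14 without control replicate 2 and -0.40 without HuR replicate 2. With the plateau values missing, 2 control and 4 HuR arrays remained and the difference was -0.59 (SE 0.446). Without replicate 2 of each group it was -0.31 (SE 0.196).

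Somatostatin message from delta cells, encoded by Sst, had no plateau. Controls lay at 11.09, 11.95 and 13.33, and HuR arrays at 10.66, 11.07 and 13.33, as the lowest, median and highest. 4 of 6 HuR arrays were below every control and 1, HuR replicate 2, was level with the highest control. The means were 12.02 ± 0.77 (SD, n = 6) in controls and 11.36 ± 0.98 (SD, n = 6) in HuR. This difference of -0.66 (SE 0.471) was 1.58-fold lower in HuR, with an interval from 3.23-fold lower to 1.29-fold higher, a limma adjusted p of 0.923 and an exact permutation p of 0.232. HuR replicate 2 carried the largest adipocyte, macrophage and Gcg values of its group. Leaving it out changed the difference to -1.06 (SE 0.328), or 2.08-fold lower, with an unadjusted limma p of 0.008 and an adjusted p of 0.957. Without control replicate 2 the difference was -0.40. Without replicate 2 of both groups it was -0.80 (SE 0.213), with an unadjusted limma p of 0.004 and an adjusted p of 0.506. With the adipocyte mean as a term it was -1.45 (SE 0.363), unadjusted limma p 0.002 and adjusted p 0.793. That fit was not particular to Sst, as Ppy, Ucn3 and Gcg also had an unadjusted limma p under 0.05 in it. No adjusted p of Sst passed the threshold in any of these fits.

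Ppy and Pyy, which encode pancreatic polypeptide and peptide YY of the neuropeptide Y family, are neighbours in the RefSeq gene order on chromosome 11. Ppy was 7.55, 8.05 and 10.41 in controls and 7.47, 8.02 and 9.30 in HuR, as the lowest, median and highest. Pyy was 6.80, 7.88 and 9.75 in controls and 7.11, 7.43 and 8.67 in HuR. In both genes replicate 2 was the highest array of each group. The group medians were close for Ppy, while for Pyy the HuR median was the lower. The differences were -0.29 (SE 0.498, limma adjusted p = 0.974, exact permutation p = 0.613) for Ppy and -0.28 (SE 0.460, limma adjusted p = 0.974, exact permutation p = 0.604) for Pyy. Control replicate 2 decided the sign of both. Without it the Ppy difference was 0.11 (SE 0.368) and the Pyy difference 0.08 (SE 0.346). Without replicate 2 of both groups the differences were -0.12 (SE 0.307) and -0.12 (SE 0.305). With the adipocyte mean as a term they were -1.14 (SE 0.372) and -0.93 (SE 0.425). The limma p-values there were 0.011 and 0.051 unadjusted, and 0.819 and 0.839 adjusted.

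Ghrl, which encodes ghrelin, was close to the median row of the arrays at 4.52 and varied little. It was 4.48, 4.70 and 4.78 in controls and 4.60, 4.67 and 4.81 in HuR, and 5 of 6 HuR arrays lay within the control range. The difference was 0.02 (SE 0.059, limma adjusted p = 0.985, exact permutation p = 0.712), with a 95% interval from -0.11 to 0.15, and it was 0.02 (SE 0.065) without replicate 2 of each group. The 23 background rows had a median of 3.74, so the signal of Ghrl over background limits what its row can show.

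**Figure D2:**
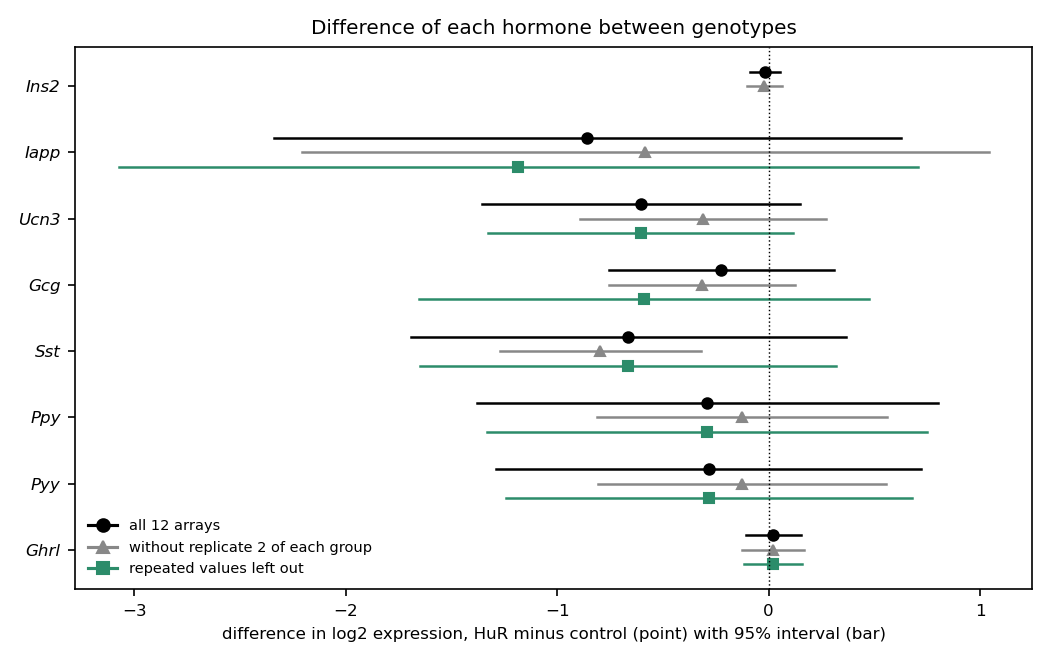
Difference in log2 expression, HuR minus control (x axis), of each hormone (y axis) with its 95% interval from limma, for all 12 arrays (circles), without replicate 2 of each group (triangles) and with repeated values taken as missing (squares). Ins2 has no square because too few arrays remain. The intervals with all arrays include 0 for all 8 hormones, and the Sst interval without replicate 2 of each group lies below 0.

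Islet hormones share a bulk sample with all other genes of islet cells, so each was set against 12 genes that islet cells express and that encode no hormone of the list. These reference genes were Chga, Chgb, Scg2, Scg3, Slc30a8, G6pc2, Slc2a2, Abcc8, Kcnj11, Ptprn, Syt7 and Vgf, which serve secretory granules, glucose sensing and the potassium channel of beta cells. The list leans to beta cells, so setting Gcg, Sst, Ppy or Pyy against it also compares cell types. Of the 12, 11 had a lower mean in HuR and 1 a higher one, with a median difference of -0.68 and none past the test. G6pc2, a glucose-6-phosphatase of beta cells, had a difference of -1.79 (SE 0.985, limma adjusted p = 0.910), the lowest of all 30142 genes. Slc2a2, the beta cell glucose transporter, had -0.94 (SE 0.474, limma adjusted p = 0.907). The mean of the reference genes was 9.03 ± 1.06 (SD, n = 6) in controls and 8.41 ± 0.42 (SD, n = 6) in HuR, a difference of -0.61 (SE 0.465). It was -0.28 (SE 0.385) without control replicate 2, whose level of 10.67 was the highest.

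Set against this mean on the same array, none of the 8 hormones had an exact permutation p under 0.05 with all arrays. The difference of the log ratio was 0.01 (SE 0.152, exact p = 0.970) for Ucn3, with a range of -2.57 to -1.74 in controls and -2.49 to -1.95 in HuR. It was -0.25 (SE 0.342, exact p = 0.465) for Iapp, and -0.03 without HuR replicate 1. It was -0.05 (SE 0.490, exact p = 0.918) for Sst, and -0.46 (exact p = 0.286) without replicate 2 of each group. Ppy stood at 0.32 (SE 0.241, exact p = 0.223), with 6 of 6 HuR arrays above the control median, and Pyy at 0.33 (SE 0.318, exact p = 0.307). Gcg stood at 0.39 (SE 0.478, exact p = 0.416), and at 0.02 without replicate 2 of each group. Ins2 and Ghrl hardly varied, so their ratios of 0.59 (SE 0.462, exact p = 0.242) and 0.63 (SE 0.474, exact p = 0.214) mirror the reference mean. Without control replicate 4 the Ghrl ratio was 0.91 (exact p = 0.0455, not adjusted).

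Across the 12 arrays some of the hormones varied together. A total of 28 relations were computed, with permutation p-values adjusted by Benjamini-Hochberg. Iapp and Ucn3 had a Pearson r of 0.90 (permutation p = 2e-05, adjusted 0.000187) and a Spearman rho of 0.98 (permutation p = 1e-05, adjusted 0.00014), where 1e-05 is the smallest p that 100000 resamples can give. Without the 2 arrays farthest from the median of Iapp their r was 0.93, and it was 0.88 within controls and 0.93 within HuR. Iapp followed the reference mean with an r of 0.94 and a rho of 0.94, and an r of 0.98 without the 2 farthest arrays (both permutation p = 1e-05, adjusted 0.00014). Ucn3 followed it with an r of 0.96 (permutation p = 1e-05, adjusted 0.00014) and a rho of 0.88 (permutation p = 0.00036, adjusted 0.00336). Ppy did so with an r of 0.88 (permutation p = 0.00046, adjusted 0.00291) and a rho of 0.84 (permutation p = 0.00113, adjusted 0.00791). Without the 2 farthest arrays r was 0.90 for both Ucn3 and Ppy. Pyy had an r of 0.78 (permutation p = 0.0045, adjusted 0.0140) and a rho of 0.70 (permutation p = 0.0141, adjusted 0.0493) with the reference mean, but an r of 0.09 within HuR and of 0.59 without replicate 2 of each group. Ppy also varied with both beta cell hormones. With Ucn3 it had an r of 0.84 (permutation p = 0.00181, adjusted 0.00724) and a rho of 0.77 (permutation p = 0.00482, adjusted 0.0193), and an r of 0.90 without replicate 2 of each group, which were also the 2 arrays farthest from the Ppy median. With Iapp it had an r of 0.77 (permutation p = 0.00258, adjusted 0.00903), a rho of 0.77 (permutation p = 0.00482, adjusted 0.0193) and an r of 0.87 without that pair. Both relations of Ppy were weaker within HuR, with an r of 0.50 with Ucn3 and 0.60 with Iapp, against 0.98 and 0.83 within controls. The points of each relation share their bulk samples, and the part of the islet content of a sample in them was not tested.

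Glucagon and somatostatin formed another pair. Gcg and Sst had an r of 0.79 (permutation p = 0.00052, adjusted 0.00291) and a rho of 0.76 (permutation p = 0.00441, adjusted 0.0193), and r was 0.84 without HuR replicates 2 and 3, the farthest from the median of Gcg. It was 0.86 within controls, 0.76 within HuR and 0.54 without replicate 2 of each group, and 6 of the Gcg values are the plateau. Neither relation to the reference mean passed the adjustment. For Gcg r was 0.31 (permutation p = 0.311, adjusted 0.415) and rho 0.45 (permutation p = 0.147, adjusted 0.259). For Sst r was 0.57 (permutation p = 0.0508, adjusted 0.0948) and rho 0.45 (permutation p = 0.148, adjusted 0.259), with an r of 0.78 within controls, 0.18 within HuR and 0.33 without replicate 2 of each group. The relation of Ppy and Pyy also weakened without the arrays that stood apart, and by more. It had an r of 0.85 (permutation p = 0.00133, adjusted 0.00621) and a rho of 0.53 (permutation p = 0.0805, adjusted 0.203), and an r of 0.44 without replicate 2 of each group. The relations of Sst with Ppy and with Pyy fell without these arrays as well. Sst and Pyy had an r of 0.75 (permutation p = 0.00532, adjusted 0.0149), a rho of 0.49 (permutation p = 0.110, adjusted 0.222) and an r of 0.27 without the 2 farthest arrays. Sst and Ppy had an r of 0.70 (permutation p = 0.0127, adjusted 0.0323), a rho of 0.49 (permutation p = 0.111, adjusted 0.222) and an r of 0.02 without the 2 farthest arrays.

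**Figure D3:**
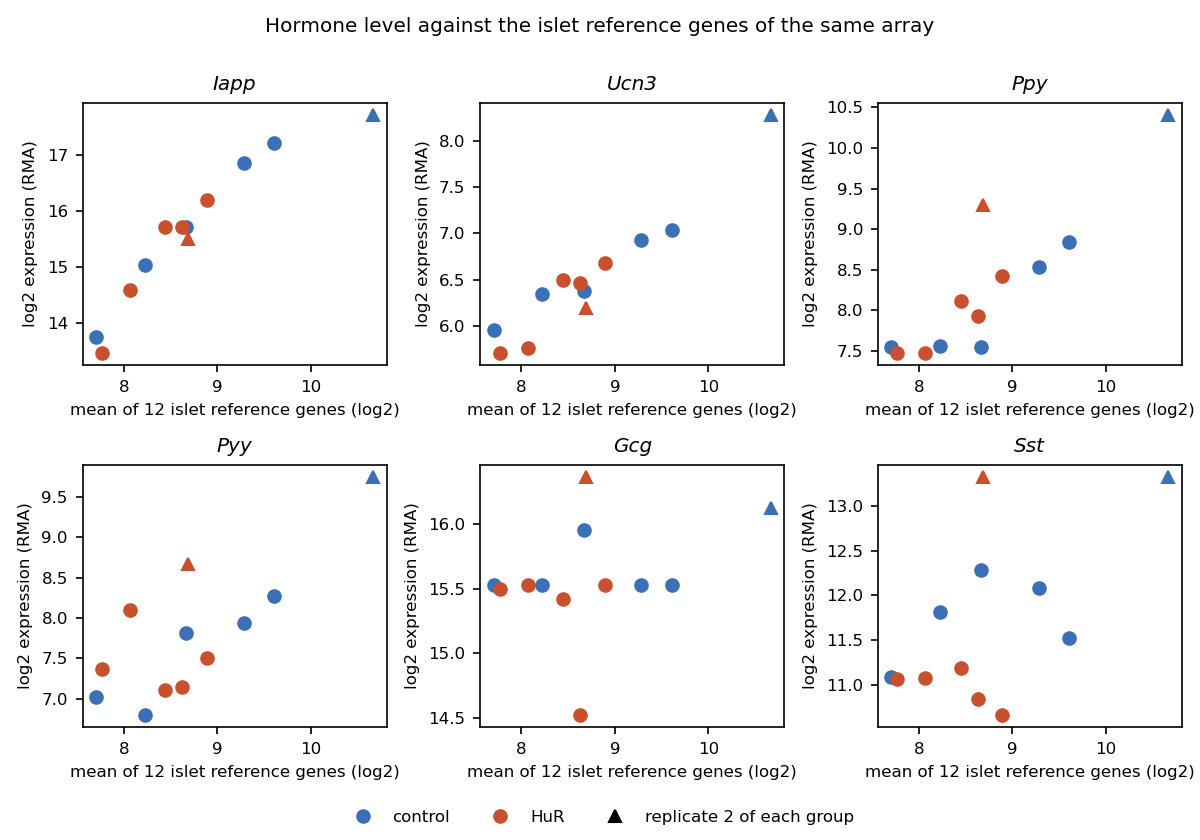
Log2 expression (y axis) of 6 hormones against the mean log2 level of the 12 islet reference genes on the same array (x axis), with 1 point per array and triangles for replicate 2 of each group. Iapp and Ucn3 lie along a line in both groups (r of 0.94 and 0.96), while Gcg and Sst scatter (r of 0.31 and 0.57) and HuR replicate 2 lies high for Gcg, Sst, Ppy and Pyy.

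The sequence before the transcription start is shown for the hormones that varied together, Iapp with Ucn3 and Ppy, and Sst with Gcg. RefSeq promoters of build GRCm38.p6 matched 8 of the 9 listed genes, and Ins2 is named only. Each window holds the 250 bases before the start, read 5′ to 3′ on the strand of the gene, with searched motifs in capitals. The motifs were the cAMP response element TGACGTCA, the homeodomain site TAATTA, the E-box form CATCTG and the TATA box form TATAAA. These exact letters were searched on both strands, other forms of the elements were not, and no match of one overlaps a match of another here. Iapp lies at chr6:142298175-142298424 (plus strand), Ucn3 at chr13:3945350-3945599 (minus strand), Ppy at chr11:102101320-102101569 (minus strand), Sst at chr16:23890845-23891094 (minus strand) and Gcg at chr2:62483654-62483903 (minus strand).
Iapp: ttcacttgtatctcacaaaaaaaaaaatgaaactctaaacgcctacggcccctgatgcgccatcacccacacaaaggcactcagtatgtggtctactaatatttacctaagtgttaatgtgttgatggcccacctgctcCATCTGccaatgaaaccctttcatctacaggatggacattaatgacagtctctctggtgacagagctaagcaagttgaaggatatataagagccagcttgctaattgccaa
Ucn3: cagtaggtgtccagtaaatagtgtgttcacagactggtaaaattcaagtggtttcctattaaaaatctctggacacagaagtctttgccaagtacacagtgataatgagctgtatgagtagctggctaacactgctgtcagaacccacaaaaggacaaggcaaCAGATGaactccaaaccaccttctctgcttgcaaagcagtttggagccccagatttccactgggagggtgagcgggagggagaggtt
Ppy: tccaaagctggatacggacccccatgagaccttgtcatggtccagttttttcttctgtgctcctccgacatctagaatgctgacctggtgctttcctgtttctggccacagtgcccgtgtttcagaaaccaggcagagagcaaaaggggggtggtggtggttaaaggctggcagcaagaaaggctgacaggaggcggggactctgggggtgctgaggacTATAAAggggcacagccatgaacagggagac
Sst: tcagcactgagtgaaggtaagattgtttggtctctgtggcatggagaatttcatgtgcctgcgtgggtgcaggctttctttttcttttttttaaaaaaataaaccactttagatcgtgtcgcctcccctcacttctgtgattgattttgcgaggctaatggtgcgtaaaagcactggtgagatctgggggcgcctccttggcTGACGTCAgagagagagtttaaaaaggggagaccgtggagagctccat
Gcg: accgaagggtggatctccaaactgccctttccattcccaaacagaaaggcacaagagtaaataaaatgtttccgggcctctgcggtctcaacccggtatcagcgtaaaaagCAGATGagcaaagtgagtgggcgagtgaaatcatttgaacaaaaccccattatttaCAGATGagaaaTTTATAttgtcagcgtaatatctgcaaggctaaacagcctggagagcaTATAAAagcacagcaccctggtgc
Sst held the cAMP response element, 48 bases before the start, as did 1.62% of 27025 mouse promoters of the same length. The other 7 hormone promoters held none. Only the first window listed for a gene was searched, although Pyy had 2 windows and Ghrl 4. The E-box form CATCTG was in 4 of 8, Iapp, Ucn3, Gcg and Ins1, beside 14.5% of all promoters. Iapp and Ucn3 each had 1 match and Gcg had 2. The letters TATAAA were in 2 of 8, Gcg and Ppy, beside 13.0%, and TAATTA was in 0 of 8, beside 4.90%. Other forms were not searched, so a promoter without a match can still hold such an element. A match describes the letters and not a bound site.

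For each hormone without a plateau, the 3 genes most like it were taken by Pearson r over the 12 arrays after the group means were removed, among 12013 genes. Those of Ucn3 were Ptprn (0.98), a granule membrane protein of islet cells that is also in the reference list, Sez6l2 (0.97) and Unc80 (0.97). A further r, without replicate 2 of each group, kept the group means in and is not the same measure. It was 0.96, 0.96 and 0.94 for these genes. Those of Ppy were Ntrk2 (0.97), Papss2 (0.97) and Fmod (0.96), with 0.92, 0.90 and 0.83 without that pair. Those of Pyy were Mtmr11 (0.96), Carf (0.96) and Ece1 (0.95), with 0.80, 0.73 and 0.88. Those of Sst were Impact (0.99), Trim12c (0.98) and Krit1 (0.98), with 0.74, -0.22 and -0.01 without that pair. Trim12c (difference 0.40) and Krit1 (0.14) had higher means in HuR while Sst had a lower one. The group difference and the pair of arrays cannot be told apart in this fall. Those of Ghrl were Olfr605 (0.88), Sfrp5 (0.87) and Atp4a (0.85), the proton pump of gastric parietal cells, over a Ghrl range of 0.34 log2 units.

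Hormone precursors are cut and finished by a small set of enzymes and chaperones. Of 7 listed, 6 were measured and 6 had a lower mean in HuR, with a median difference of -0.39. Pam, which amidates peptide ends such as that of amylin, had -0.46 (SE 0.201, limma adjusted p = 0.904), with 4 of 6 HuR arrays below every control. Scg5, a chaperone of a proconvertase, had -0.45 (SE 0.319, limma adjusted p = 0.924). Pam was the only one of the 6 with an unadjusted limma p under 0.05, a level at which 2.63% of all genes were lower.

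Transcription factors of the hormone genes were measured for 11 of 14, of which 7 were lower and 4 higher, with a median difference of -0.17 and 2 lower at an unadjusted limma p under 0.05, beside 2.63% of all genes lower at that level. Nkx2-2, a factor of several endocrine cell types, had -0.17 (SE 0.056, limma adjusted p = 0.878), and Pdx1, which activates insulin transcription, had -0.26 (SE 0.093, limma adjusted p = 0.878). In both, 4 of 6 HuR arrays lay below all controls. Pdx1 is also the gene whose promoter drives Cre in every sample. Hormone receptors were measured for 16 of 17, with 9 lower and 7 higher and a median of -0.02. Sstr4, a somatostatin receptor, had -0.22 (SE 0.090, limma adjusted p = 0.890), and Npy1r, a receptor of peptide YY, had 0.19 (SE 0.092, limma adjusted p = 0.905). No gene of these lists passed the adjusted threshold.

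Markers of the cells that make these hormones were split. The 6 beta cell markers were lower in 6 of 6, with a median of -0.49. 3 of them are also reference genes. They included Nkx6-1, a beta cell factor, at -0.19 (SE 0.091, limma adjusted p = 0.905). Alpha cell markers were measured for 3 of 6, with 2 lower and 1 higher. Only 1 of the 3 had a mean above the median row of 4.52, and its difference was the lowest, -0.40. Irx2, an alpha cell factor, had -0.09 (SE 0.051, limma adjusted p = 0.908) and Irx1 had 0.08 (SE 0.072, limma adjusted p = 0.943). Both had a mean over all arrays under the median row, with Irx2 at 4.54 in controls and 4.45 in HuR. Irx1, the only higher one, was at 3.80 and 3.87, close to the background median of 3.74. The signal over background therefore limits what the split of the alpha cell markers can show. Delta cell markers were 2 lower and 2 higher of 4. Ghsr, the ghrelin receptor, had -0.08 (SE 0.042, limma adjusted p = 0.907) and the somatostatin receptor Sstr3 had -0.10 (SE 0.107, limma adjusted p = 0.957). Ghsr also had a mean under the median row, and Sstr3 did not. No marker of these 3 cell types had an unadjusted limma p under 0.05. By the exact permutation test, also unadjusted, Ghsr had a p of 0.0346 and Ero1b, a beta cell marker outside the naming rule and chosen after its values were seen, a p of 0.0433. The share of all genes under 0.05 by the exact test was not counted.

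Other cells of the pancreas are described for the same arrays. Of the 8 acinar markers, 4 stood at the end of the scale and 4 were lower, of which Bhlha15, an acinar secretory factor, had -0.64 (SE 0.264, limma adjusted p = 0.896) and Rbpjl had -0.46 (SE 0.271, limma adjusted p = 0.911). Duct markers were 4 lower and 1 higher of 5, with Krt7 at -0.17 (SE 0.084, limma adjusted p = 0.907) and Krt19 at -0.28 (SE 0.165, limma adjusted p = 0.911). Among adipocyte markers Car3 had 2.64 (SE 1.023, limma adjusted p = 0.878) and Retn 2.11 (SE 0.929, limma adjusted p = 0.904). Among macrophage markers Mpeg1 had 1.29 (SE 0.307) and Ms4a7 had 0.84 (SE 0.221), each with a limma adjusted p of 0.878, and 5 of 6 HuR arrays above every control. B cell and lymph node markers were 5 higher and 2 lower of 7, with Ighm at 1.94 (SE 1.325, limma adjusted p = 0.921), Cd79b at 0.17 (SE 0.309, limma adjusted p = 0.977), and list means of 5.14 to 8.87 in controls and 5.34 to 8.31 in HuR. Nerve markers were 2 lower and 1 higher of 3, with S100b at -0.05 (SE 0.089, limma adjusted p = 0.977) and Uchl1 at -0.01 (SE 0.044, limma adjusted p = 0.988).

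**Figure D4:**
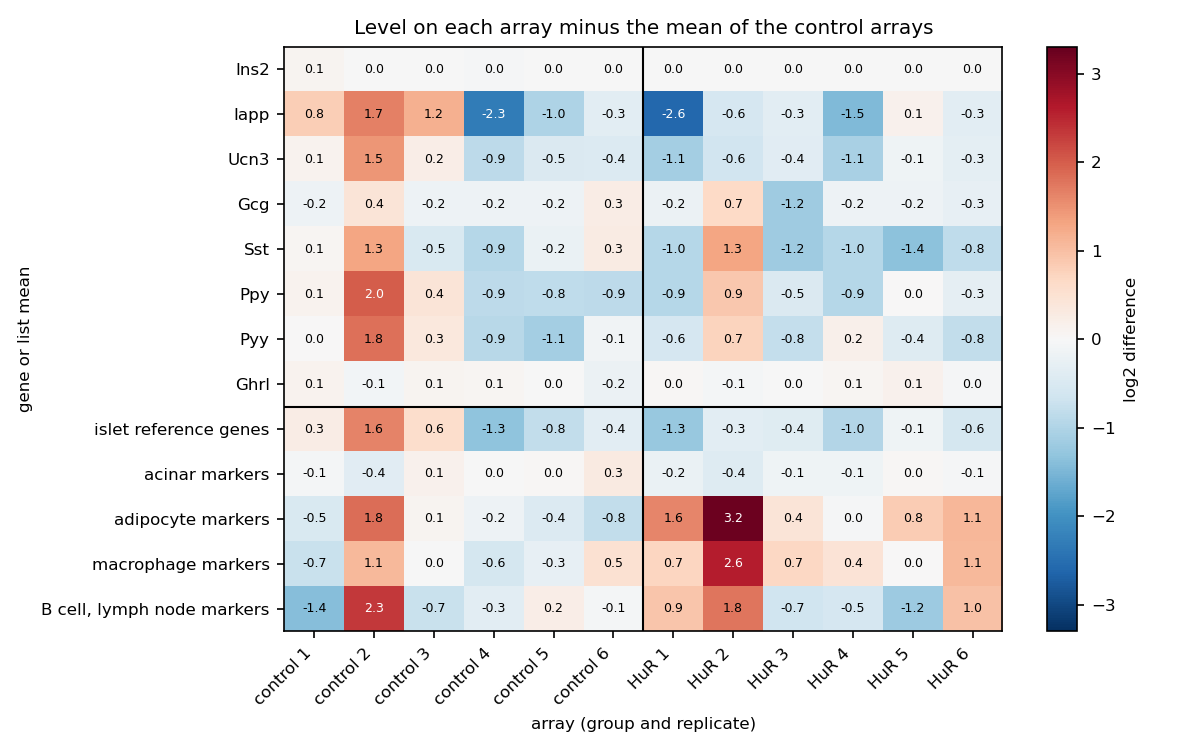
Log2 level of each hormone (rows above the line) and mean log2 level of 5 gene lists (rows under it) on each array, minus the mean of the 6 control arrays. Columns are the 12 arrays and the number in a cell is the difference. Iapp, Ucn3 and the islet reference genes share a pattern over the arrays, and the adipocyte, macrophage and B cell lists are highest at replicate 2 of each group.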

How the data were processed

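Titles and genotypes decided the group of each of the 12 arrays. The authors deposited log2 values made with RMA, a method of background correction, normalization across arrays and probe summary, per the labels. Affymetrix Expression Console 1.4 was used beside Transcriptome Analysis Console 3.1, per the submitters' processing notes. Their settings and the genome build were not given in the sources used here.

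Of 72688 rows, 6732 control rows were left out. Through the platform annotation, which can be old, 30604 of 65956 rows had 1 gene symbol, 33206 had none, and the 2146 with several stayed unnamed. A RefSeq table of GRCm38.p6 matched 22818 rows and updated 827 symbols. The row with the highest mean stood for a gene, which left 30142 genes. The 23 background rows had a median of 3.74, the scale ended at 19.9, which 139 genes reached on every array. The number of arrays limits the precision.

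In R 4.3.3, limma 3.58.1 fitted the difference between groups on all rows (lmFit, then eBayes, two-sided), with Benjamini-Hochberg adjustment over genes and a threshold of 0.05. The fit was tested on simulated data. Exact permutation tests used all 924 assignments of arrays to groups, so their smallest p is 0.00216. Correlation p-values came from 100000 resamples. Python 3.11.15 with scipy 1.17.1 was used. The genes named are the hormones, Elavl1, the 2 measured members of each list with the smallest unadjusted p, and the 3 genes most like each hormone without a plateau, among genes with a mean above the median row, without small RNAs, predicted genes, Riken clones and segments of immunoglobulin or T cell receptor genes. The members and lists were chosen with earlier results of these data known. Alternatives were a block for the replicate number, other normalizations, only genes above the median row, the mean of all rows of a gene, other variance models, array weights, plateau values as missing, marker means as covariates, arrays left out, other reference genes and a threshold of 0.1.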

Additional observations from a re-analysis of the deposited data

Results flagged for a closer look

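Of the 15 sets of 6 arrays checked, each a hormone in 1 group, 2 held an array whose gap to the nearest other was a larger share of the range than 0.625, the 95% critical value of Dixon's test. Chance gives about 1 in 20. Ins2 in HuR holds 1 value on all 6 arrays and could not be checked. Ins2 in control replicate 1 was 13.40, with a gap of 0.89 of the range, but 4 of the 6 control values are the repeated one, so that rate does not apply to it. Sst in HuR replicate 2 was 13.33, with a gap of 0.80 of the range, and this array had the highest Gcg level of all 12 and the highest adipocyte and macrophage marker means.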

How the results depend on the processing

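No gene was called by limma under any of the alternatives, including each array left out in turn and an adjusted p under 0.1, while 793 genes were lower and 864 higher at an unadjusted p under 0.05 with all arrays. At that unadjusted level, 4 hormones were lower with the adipocyte mean as a term (Sst, Ppy, Ucn3 and Gcg). Without control replicate 4, 2 were lower at it (Iapp and Ucn3). The share of all genes at that level in these fits was not counted. The median hormone difference, -0.29 with all arrays, ranged from -0.95 to -0.22 over the other settings and from -0.51 to -0.08 with single arrays left out. No alternative other than leaving out 1 array turned the sign of a hormone's own difference. With 1 array left out, Ins2 ranged from -0.0239 to 0.0029, Ppy from -0.525 to 0.111, Pyy from -0.509 to 0.0803 and Ghrl from -0.0159 to 0.0445. Those of Gcg (-0.40 to -0.03), Sst (-1.06 to -0.40), Iapp (-1.32 to -0.51) and Ucn3 (-0.78 to -0.31) kept their sign. Relative to the islet reference genes, Sst ranged from -0.39 to 0.18, Ucn3 from -0.0664 to 0.0988, Iapp from -0.44 to -0.03, Gcg from 0.15 to 0.62, Ppy from 0.14 to 0.42, Pyy from 0.17 to 0.47, Ins2 from 0.26 to 0.85 and Ghrl from 0.29 to 0.91, which alone reached an exact p under 0.05 (0.0455, without control replicate 4). The cause of these changes was not tested, beyond which array was left out. Ins2 has no value with plateau values missing, because 2 control arrays remained. With the replicate number as a block, Sst kept its difference of -0.66 with an SE of 0.189 and an adjusted p of 0.483. Same-numbered arrays correlated at -0.08 to 0.64 in their deviations from the group means, and 4 of 12 correlated best with their own number. The labels do not say that the numbers pair the samples, so the numbers are not used as pairs.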

Other observations

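Gal, which encodes the neuropeptide galanin and was chosen here after its values were seen, varied more over the arrays than any of the 8 hormones. It was 9.16, 11.80 and 15.82 in controls and 9.56, 11.31 and 13.46 in HuR at the lowest, median and highest array, with control replicate 4 the highest and control replicate 2 the lowest. The difference of -0.62 lay within this spread (SE 1.116, limma adjusted p = 0.977, exact permutation p = 0.600). As a description with no test, Gal had a Pearson r of -0.74 and a Spearman rho of -0.71 with the islet reference mean over the 12 arrays. Its r was -0.62 without control replicates 2 and 4, -0.95 within the controls and -0.67 within HuR.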
